A study of Mus musculus with 20 samples.

Results

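The lungs of 10 Sprague Dawley rats with acute lung injury by bleomycin were compared by sex, 5 females (XX) against 5 males (XY), over the autosomal genes. Genes on chromosomes X, Y and MT were left out, and a gene entered when it reached 0.5 FPKM (fragments per kilobase per M fragments, M for mega) in at least 5 of these 10 libraries. This kept 14750 genes of the 23799 in the table, or of 22845 on autosomes, and 13789 of them are protein coding. Of the 14750, 13054 reached 0.5 FPKM in all 10 libraries, 5 did so in the 5 females and no male, and 11 in the 5 males and no female. The minimum was met in exactly 5 libraries by 275 genes, and 278 autosomal genes fell just outside it with 4.

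All were from the body-weight-matched cohort, of which 5 females and 5 males had a sham treatment and served to set the sex difference of uninjured lung beside that of injured lung. Each library is poly-A RNA of whole lung tissue from 1 animal. The labels give no bleomycin dose, route, age or time of tissue collection, and none of the 4 groups carries a transgene or another agent in the labels. Their organism field names mouse, but the stock and the gene identifiers are those of rat.

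Bleomycin is a glycopeptide that breaks DNA strands. In the lung it injures the thin alveolar type 1 cells and the capillary endothelium that together form the gas exchange surface, and type 2 cells, which make surfactant, divide and pass through transitional states to replace type 1 cells. Monocytes enter and become macrophages, and fibroblasts lay down matrix. Rodents of both sexes develop this injury, and its course has been described as differing between them.

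The 10 libraries held 71.7 to 87.5 M counts in females and 72.1 to 85.1 M in males. Surfactant, type 1 cell, airway and endothelial transcripts marked all 10 as lung (Sftpc at least 922 FPKM, Scgb1a1, Ager and Pecam1 also present), and the Y-linked genes matched the labelled sex. Males were more spread than females: the SD of log2(FPKM + 0.1) was larger in males for 12053 of the 14750 genes, and the median SD of log2 CPM was 0.364 against 0.211. On the first principal component, with 33.6% of the variance, females lay between 11.3 and 47.8 and males between −62.0 and 23.9, and male 4, at 23.9, lay among the females. Mitochondrial transcripts took 4.94 ± 0.443% of counts in females and 7.63 ± 1.97% in males (SD, n = 5, exact permutation test, two-sided, p = 0.0159), with male 4 at 5.43%. Transcripts of fat, heart muscle and liver were highest in male 5, where the fat cell list summed to 445 FPKM against 25.4 to 32.7 in females, and the heart muscle list to 529 FPKM against 20.9 to 131. The skeletal muscle list was highest in male 3, and the mesothelium and thymus lists in male 2. Results are therefore given with and without male 4. Since male 4 lay among the females, leaving it out tends to widen the differences by construction, though not for every gene or list. Counts and p-values without it therefore describe the other 9 libraries and support nothing. Beside them stand a fit with the mitochondrial percentage, which itself differs between the sexes, as a covariate, and a fit without males 2 and 5.

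**Figure D1:**
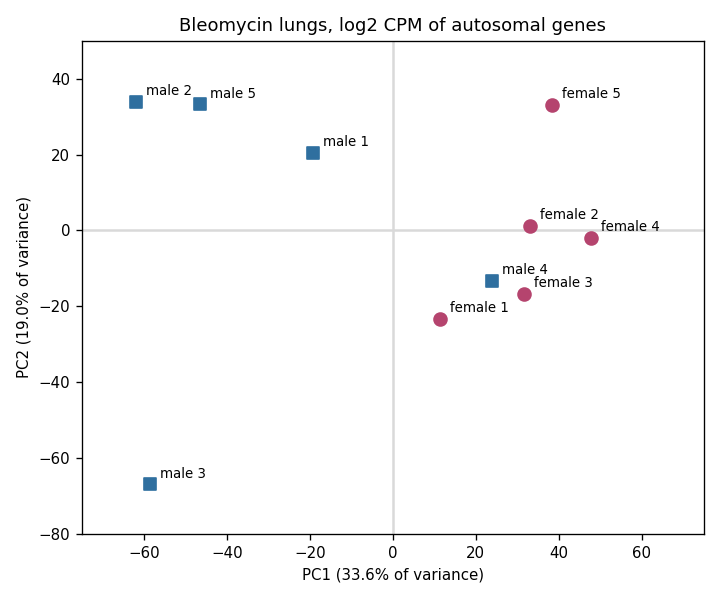
First and second principal component of log2 CPM (counts per M counts) of the autosomal genes in the 10 bleomycin libraries, circles for females and squares for males. Male 4 lies at 23.9 on the first component, between female 1 and the other females, and the other 4 males lie below 0.

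Which autosomal genes differ between the sexes in the injured lung was tested by edgeR's quasi-likelihood test on the deposited counts, with 2 thresholds for a call, adjusted p under 0.05 and absolute log2 fold change of at least 1 (female minus male). There were 12 genes higher in females, among them the endothelial growth factor receptor Kdr and the drug-metabolising enzymes Cyp2b1 and Fmo1, and 8 genes higher in males, among them the tight junction gene Cldn4 and the signalling regulator Rgs4. These 20 calls are 0.136% of the 14750 genes, 0.0814% higher in females and 0.0542% lower, and 25 genes (0.169%) had an adjusted p under 0.05 at any size, 0.0881% higher and 0.0814% lower in females. A much larger set lay near the threshold: 3886 genes (26.3%) had an unadjusted p under 0.05, 1564 had an adjusted p between 0.05 and 0.1, and 501 (3.4%) would be called at an adjusted p under 0.1. Without male 4 the same test called 818 genes (5.55%), 387 higher (2.62%) and 431 lower in females (2.92%), and in 674 of these 818 the level of male 4 lay nearer to the female mean than to that of the other males. All 5 females lay above all 5 males in 744 genes (5.04%), and all 5 males above all 5 females in 376 (2.55%). Of the 20 called genes, 19 had groups that did not overlap. For Tmem202 and AABR07061385.2 among them, which reached 0.5 FPKM in males only, the filter fixed this in advance. With the mitochondrial percentage as a covariate 1 gene was called, which is none of the 20, and leaving out any 1 of females 2 to 5 left Rgs4 alone. DESeq2 called 592 genes, all 20 among them. The adjusted p-values were taken over genes of chromosomes X, Y and MT as well. Adjusted over the autosomal genes alone, 2 genes were called, 0 higher and 2 lower in females.

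**Figure D2:**
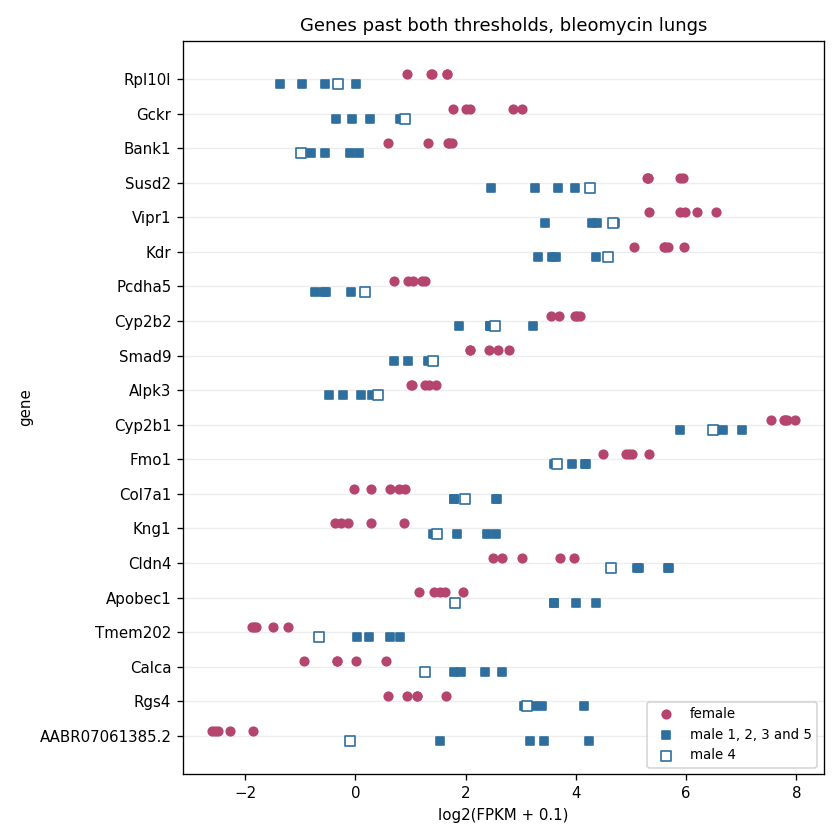
Level of each of the 20 called genes in each of the 10 bleomycin libraries on a log2(FPKM + 0.1) axis, circles for females, filled squares for males 1, 2, 3 and 5, open squares for male 4. The groups do not overlap except in Apobec1, where male 4 at 3.42 FPKM lies below female 1 at 3.76.

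Of the 12 genes higher in females, 3 encode receptors or signal carriers of the alveolar wall. Kdr, the main receptor of vascular endothelial growth factor on endothelial cells, stood at 33.2, 51.02, 48.9, 48.3 and 62.01 FPKM in females 1 to 5 and 20.5, 11.8, 12.4, 23.9 and 9.85 FPKM in males 1 to 5. Every female exceeded every male, and male 4 was the highest male (log2 fold change 1.61 ± 0.264, adjusted p = 0.0399). Vipr1, a receptor for vasoactive intestinal peptide, stood at 39.8, 59.3, 62.9, 73.3 and 92.7 FPKM in females 1 to 5 and 26.1, 20.9, 19.4, 25.4 and 10.7 FPKM in males 1 to 5. The lowest female was above the highest male (log2 fold change 1.66 ± 0.269, adjusted p = 0.0399), and an unnamed gene on the same strand overlaps it. Smad9, which carries signals of bone morphogenetic protein receptors to the nucleus, had 4.13, 5.23, 4.10, 5.91 and 6.81 FPKM in females 1 to 5 and 2.39, 1.85, 1.53, 2.55 and 2.57 FPKM in males 1 to 5. These groups were also apart (log2 fold change 1.26 ± 0.185, adjusted p = 0.0319).

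Drug-metabolising enzymes form the second group. Fmo1, a flavin-containing monooxygenase, measured 22.5, 31.1, 29.9, 32.5 and 40.2 FPKM in females 1 to 5 and 17.97, 17.7, 12.04, 12.6 and 15.1 FPKM in males 1 to 5. Here male 4 was low, next to male 3, and all females were above all males (log2 fold change 1.05 ± 0.147, adjusted p = 0.0267). Without male 4 the log2 fold change of Fmo1 was 0.999, just under the minimum of 1 for a call. Cyp2b1, a cytochrome P450 that is abundant in rat lung, measured 222, 186, 218, 228 and 250.2 FPKM in females 1 to 5 and 91.7, 59.3, 101, 88.98 and 129 FPKM in males 1 to 5. The females spanned a narrow range and male 5 was the highest male (log2 fold change 1.22 ± 0.188, adjusted p = 0.0399). Cyp2b2 averaged 14.6 ± 2.27 FPKM in females and 5.83 ± 2.08 in males (log2 fold change 1.32 ± 0.223, adjusted p = 0.0459), also without overlap. The sequences of Cyp2b1 and Cyp2b2 are nearly identical, so the split of reads between them is uncertain. Of 23 tested genes of xenobiotic metabolism, these 3 were the ones with an adjusted p under 0.05, 16 had a positive difference, and the median was 0.26 against −0.04 over all 14750 genes. The list's median was −0.06 without male 1 and 0.45 without males 2 and 5.

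The other genes higher in females have varied roles. Susd2, a membrane protein with a sushi domain, stood at 39.2, 39.4, 59.2, 39.6 and 61.1 FPKM in females 1 to 5 and 9.51, 5.41, 15.8, 19.1 and 12.7 FPKM in males 1 to 5 (log2 fold change 1.90 ± 0.32, adjusted p = 0.0459), and male 4, the highest male, had less than any female. Bank1, a scaffold protein of B cell receptor signalling, read 1.40, 2.38, 3.09, 3.29 and 3.15 FPKM in females 1 to 5 and 0.83, 0.946, 0.584, 0.406 and 0.475 FPKM in males 1 to 5 (log2 fold change 2.03 ± 0.294, adjusted p = 0.0307). Male 4 was the lowest of all 10 libraries for Bank1. Gckr, the regulator of glucokinase known from liver, averaged 5.33 ± 2.14 FPKM in females and 1.21 ± 0.479 in males (log2 fold change 2.12 ± 0.344, adjusted p = 0.0399). Alpk3, a kinase-family protein known from heart muscle, averaged 2.25 ± 0.328 FPKM in females and 0.944 ± 0.254 in males (log2 fold change 1.24 ± 0.207, adjusted p = 0.0459). Pcdha5, a clustered protocadherin, averaged 1.97 ± 0.304 FPKM in females and 0.708 ± 0.223 in males (log2 fold change 1.46 ± 0.207, adjusted p = 0.0267), but the genes of that cluster share their last exons and 2 other genes overlap it, so its count is uncertain. Rpl10l averaged 2.59 ± 0.506 FPKM in females and 0.577 ± 0.242 in males (log2 fold change 2.12 ± 0.338, adjusted p = 0.0399), and as a copy of the X-linked ribosomal protein gene Rpl10 it may take reads from that gene. None of these groups overlapped.

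The gene with the smallest p was lower in females. Rgs4, which speeds the switching off of G protein signals, stood at 3.03, 2.08, 1.82, 1.41 and 2.07 FPKM in females 1 to 5 and 9.29, 17.6, 8.25, 8.51 and 10.4 FPKM in males 1 to 5. All males were above all females, and male 2 was far above the other males (log2 fold change −2.37 ± 0.252, adjusted p = 0.00543). It was the only one of the 20 that stayed under an adjusted p of 0.05 when any 1 library was left out, with log2 fold changes from −2.56 to −2.16 and adjusted p up to 0.0306. Cldn4, a tight junction claudin that injured and transitional alveolar epithelium expresses, had 15.5, 7.97, 12.99, 5.52 and 6.20 FPKM in females 1 to 5 and 35.1, 50.6, 51.7, 24.9 and 34.2 FPKM in males 1 to 5. Its lowest male, male 4, was above the highest female, female 1 (log2 fold change −2.03 ± 0.328, adjusted p = 0.0399). Apobec1, a cytidine deaminase that edits apolipoprotein B mRNA, had 3.76, 2.97, 2.80, 2.12 and 2.60 FPKM in females 1 to 5 and 16.01, 20.4, 12.1, 3.42 and 12.04 FPKM in males 1 to 5. The other 4 males were far above the females, and male 4 lay among them (log2 fold change −2.15 ± 0.37, adjusted p = 0.0474), and Dppa3 overlaps this gene.

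Col7a1, the collagen of the anchoring fibrils beneath epithelia, averaged 1.37 ± 0.36 FPKM in females and 4.44 ± 1.25 in males (log2 fold change −1.72 ± 0.244, adjusted p = 0.0267), and its groups were apart. Calca, which encodes calcitonin and the neuropeptide CGRP, was at 1.36, 0.689, 0.911, 0.425 and 0.693 FPKM in females 1 to 5 and 3.65, 3.36, 5.02, 2.29 and 6.24 FPKM in males 1 to 5. Female 1 was the highest female and still below male 4, the lowest male (log2 fold change −2.32 ± 0.365, adjusted p = 0.0399). Kng1, the kininogen precursor of bradykinin, averaged 1.02 ± 0.444 FPKM in females and 3.93 ± 1.45 in males (log2 fold change −1.94 ± 0.331, adjusted p = 0.0472), and rat kininogen genes are close copies whose reads may be shared. Tmem202, a transmembrane protein gene, averaged 0.224 ± 0.0673 FPKM in females and 1.13 ± 0.44 in males (log2 fold change −2.30 ± 0.35, adjusted p = 0.0376). It reached 0.5 FPKM in the 5 males and in no female, so the separation of its groups follows from how it entered the test. The remaining call, chosen for mention after its value was seen, is a gene with the clone-based name AABR07061385.2 and no described product, which had 55 counts over the 5 females and 4155 over the 5 males (log2 fold change −6.30 ± 0.795, adjusted p = 0.0166), and males from 0.829 (male 4) to 18.8 FPKM. This gene too reached 0.5 FPKM in the 5 males and in no female, so its separate groups also follow from how it entered.

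The 20 genes were set beside the sham lungs to see whether the same difference existed without injury. Over the same 14750 genes, 35 (0.237%) were called between sham females and sham males, 3 higher (0.0203%) and 32 lower in females (0.217%), 63 (0.427%) had an adjusted p under 0.05, and none of the 20 was among them. Of the 20, 16 had the same sign in sham. The sex difference itself differed between bleomycin and sham animals at an adjusted p under 0.05 in 12 of the 20, against 901 of all 14750 genes (6.11%), 570 positive (3.86%) and 331 negative (2.24%). The 20 were called on the bleomycin contrast, which enters this difference, so the 12 are not independent of the choice. This fit took its spread from all 20 libraries, where the bleomycin contrast alone called 605 genes. For Kdr the sham means were 56.9 ± 5.51 FPKM in females and 52.02 ± 15.3 in males, and the bleomycin contrast exceeded the sham contrast by 1.48 ± 0.321 on the log2 scale (adjusted p = 0.0196). Susd2 had sham means of 30.7 ± 6.97 FPKM in females and 35.4 ± 6.89 in males and a difference of contrasts of 2.10 ± 0.392 on the log2 scale (adjusted p = 0.0152). For Cldn4 the sham levels were 15.1 ± 1.73 FPKM in females and 16.3 ± 5.31 in males, with a difference of contrasts of −1.90 ± 0.421 on the log2 scale (adjusted p = 0.0203), and for Apobec1 they were 1.51 ± 0.296 FPKM in females and 1.29 ± 0.493 in males, with −2.36 ± 0.468 on the log2 scale (adjusted p = 0.0173). The contrasts of Rgs4 were closer to each other, with a difference of −0.50 ± 0.675 on the log2 scale (adjusted p = 0.67). Its sham means were 1.66 ± 0.844 FPKM in females and 6.22 ± 5.17 in males. Sham males ranged from 1.05 to 13.9 FPKM and overlapped with sham females, and the sham contrast did not pass (adjusted p = 0.109). Cyp2b2 had sham means of 85.1 ± 83.3 FPKM in females and 38.2 ± 6.39 in males and a difference of contrasts of 0.14 ± 0.564 on the log2 scale (adjusted p = 0.905). The highest sham female had 233 FPKM, while the sham medians were 46.1 FPKM in females and 41.8 in males. Its sham groups overlapped and the sham contrast did not pass (adjusted p = 0.257). Over all genes the difference of contrasts was called for 399 (2.71%), 287 positive (1.95%) and 112 negative (0.759%), or 247 and 153 with upper quartile factors. No gene was called with the mitochondrial percentage as a covariate in edgeR, where 2872 had an unadjusted p under 0.05.

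**Figure D3:**
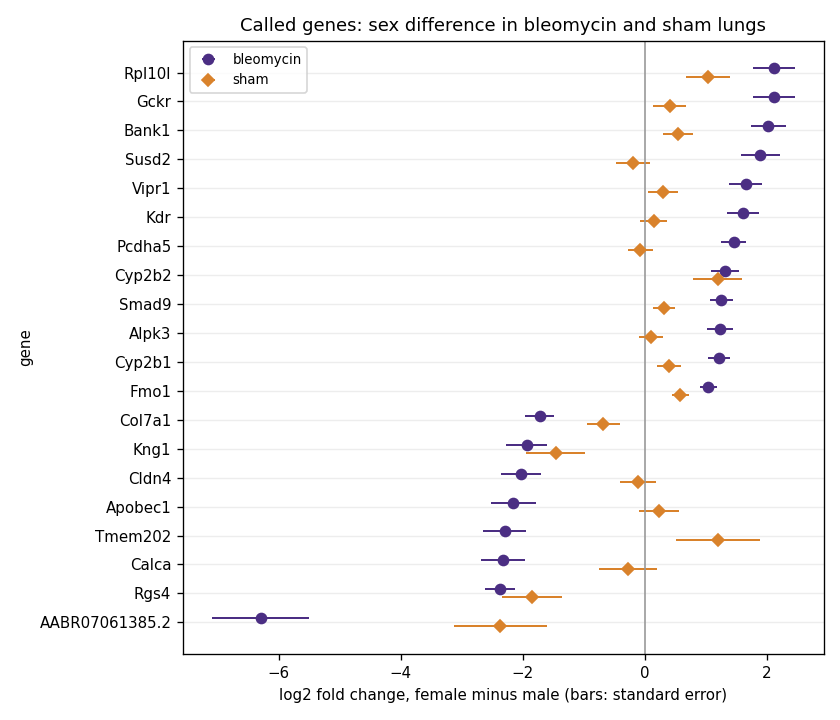
Log2 fold change, female minus male, of the 20 called genes in bleomycin lungs (circles) and sham lungs (diamonds), with bars for the standard error. Kdr lies at 1.61 in bleomycin and 0.15 in sham animals, and Rgs4 at −2.37 and −1.85.

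Beyond single calls, gene lists for the cell types and processes of injured lung were read by counts and medians. Among lists of lung cell types and processes with at least 10 tested genes, the medians ran from 0.83 in alveolar type 1 cells to −0.998 in MHC class II presentation, with −0.04 over all 14750 genes, of which 45.8% had a positive and 54.2% a negative difference (50.2% positive in sham lungs). At an adjusted p under 0.05 with all 10 libraries, few listed genes passed. Without male 4, 2261 of the 14750 genes (15.3%) passed, 1170 higher (7.93%) and 1091 lower in females (7.4%). The counts of the lists without male 4 stand beside these shares as description only, since leaving it out tends to widen the differences by construction. Leaving out any 1 other library gave far fewer: 252 of the 14750 without female 1, and 1 to 12 without each of the remaining 8. Without female 1 no list had more than 5 genes past the threshold. Without each of the remaining 8, the lists with any were xenobiotic metabolism, with at most 2, and airway secretory cells and B and plasma cells, with at most 1 each. The sign of the median turned with the mitochondrial covariate in 14 of the 42 lists and without males 2 and 5 in 8. Over all 14750 genes, all females lay above all males in 5.04% and all males above all females in 2.55%. The difference of contrasts passed as positive in 3.86% and as negative in 2.24%, and the sham contrast passed in 0.427%. In bulk tissue, fewer cells of a type and less RNA per cell cannot be told apart.

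**Figure D4:**
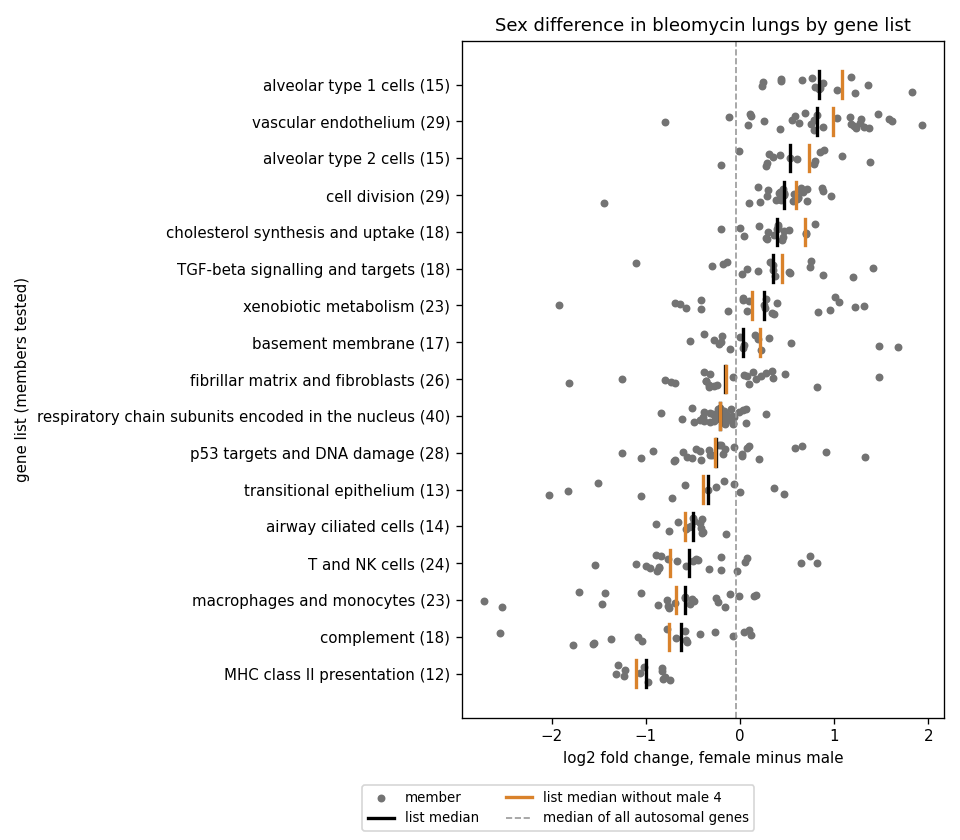
Log2 fold change, female minus male, of every tested gene (points) in 17 lists, with the list median over all 10 libraries (black) and without male 4 (orange), and the median of all autosomal genes (dashed). The type 1 cell list has all 15 points above 0 and the MHC class II list all 12 below 0.

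The vascular endothelium list held 29 tested genes. Of these, Kdr was higher in females at the threshold, 27 had a positive difference, and the median was 0.82. All females lay above all males in 8 of the 29, against 5.04% of all 14750 genes. Without male 4, 21 had an adjusted p under 0.05 as higher in females, against 7.93% of all genes. In that fit 1, Gpihbp1, the capillary anchor of lipoprotein lipase, passed as lower, against 7.4%. The list's median was 0.52 with the mitochondrial covariate and 0.62 without males 2 and 5, with no gene past the threshold in either fit. Flt1, the second vascular endothelial growth factor receptor, had 17.9, 30.4, 27.97, 28.8 and 27.3 FPKM in females 1 to 5 and 14.05, 8.78, 7.52, 16.6 and 7.19 FPKM in males 1 to 5. Its groups were apart, with male 4 just below female 1, and the difference of log2 fold change 1.28 ± 0.255 fell short with all males (adjusted p = 0.0524) and passed without male 4 (adjusted p = 0.00747). Bmpr2, the bone morphogenetic protein receptor mutated in inherited pulmonary hypertension, had 10.4, 20.6, 14.6, 23.1 and 20.95 FPKM in females 1 to 5 and 7.66, 6.01, 3.00, 9.64 and 8.29 FPKM in males 1 to 5. It too was apart (log2 fold change 1.37 ± 0.292, adjusted p = 0.0577, and adjusted p = 0.0131 without male 4).

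Further genes of capillaries and junctions are given by their means. Plvap, the diaphragm protein of fenestrae and caveolae, averaged 368 ± 62.03 FPKM in females and 121 ± 82.6 in males, with males from 47.3 to 253 (male 4). Ednrb, the endothelin B receptor, averaged 36.5 ± 10.3 FPKM in females and 9.54 ± 6.95 in males (log2 fold change 1.93 ± 0.459, adjusted p = 0.0627, and adjusted p = 0.00766 without male 4). Eng, the endoglin coreceptor of TGF-beta, averaged 264 ± 44.7 FPKM in females and 114 ± 47.2 in males (log2 fold change 1.18 ± 0.278, adjusted p = 0.0623), and the junction cadherin Cdh5 131 ± 17.2 FPKM in females and 70.5 ± 33.3 in males (log2 fold change 0.88 ± 0.279, adjusted p = 0.0954). The pan-endothelial gene Pecam1 differed less, at 151 ± 19.8 FPKM in females and 102 ± 26.2 in males (log2 fold change 0.55 ± 0.188, adjusted p = 0.109). Tie1, at 65.5 ± 8.26 FPKM in females and 60.6 ± 9.42 in males (adjusted p = 0.679), and Emcn, at 88.5 ± 14.5 FPKM in females and 83.2 ± 18.4 in males (adjusted p = 0.775), had nearly equal means. In sham animals no gene of the list passed and the median was −0.05. The difference of contrasts was positive with an adjusted p under 0.05 in 12 of the 29, against 3.86% of all 14750 genes.

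Ligands that act on vessels did not go one way. Angpt2, an antagonist of the Tie2 receptor that endothelium releases, had 4.08, 2.45, 2.95, 2.54 and 3.29 FPKM in females 1 to 5 and 6.42, 6.63, 6.78, 4.25 and 5.65 FPKM in males 1 to 5. All males were above all females (log2 fold change −0.97 ± 0.194, adjusted p = 0.0524, and adjusted p = 0.0105 without male 4). Angptl4, a lipase inhibitor induced by low oxygen and fatty acids, was also apart with males above (4.18 ± 2.12 FPKM in females and 11.8 ± 3.24 in males). Bmp6 averaged 41.7 ± 7.99 FPKM in females and 19.9 ± 6.15 in males and Vegfa 188 ± 69.1 FPKM in females and 84.9 ± 44.6 in males, and neither passed with all males (adjusted p = 0.0607 and adjusted p = 0.0957).

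Alveolar type 1 cell genes had a positive difference in all 15 tested, with a median of 0.83. None passed with all 10 libraries. In 6 all females lay above all males, against 5.04% of all 14750 genes. Without male 4, 9 passed as higher in females, against 7.93% of all genes. The median fell to 0.15 with the mitochondrial covariate and to 0.55 without males 2 and 5. Rtkn2 was left out of the list's counts because 2 genes of the table carry its symbol. Clic5, a chloride channel family protein of the type 1 cell membrane, measured 136, 190.1, 181, 225 and 196 FPKM in females 1 to 5 and 89.1, 40.8, 42.1, 123 and 65.3 FPKM in males 1 to 5. Males 2 and 3 were lowest and male 4 was next to female 1 (log2 fold change 1.35 ± 0.303, adjusted p = 0.0607, and adjusted p = 0.00766 without male 4). Akap5, a kinase anchor protein, measured 49.7, 80.7, 71.5, 89.8 and 76.97 FPKM in females 1 to 5 and 29.3, 5.85, 12.03, 38.8 and 17.00 FPKM in males 1 to 5. Male 2 had the least, and no male reached the lowest female (log2 fold change 1.82 ± 0.431, adjusted p = 0.0623, adjusted p = 0.011 without male 4). Ager, the receptor for advanced glycation end products and the best known type 1 cell marker, had 599, 837, 837, 1036 and 863 FPKM in females 1 to 5 and 424, 90.98, 475, 579 and 174 FPKM in males 1 to 5. Every female exceeded every male by a small margin over male 4, and males 2 and 5 were far below the rest (log2 fold change 1.22 ± 0.443, adjusted p = 0.123, adjusted p = 0.0525 without male 4). The water channel Aqp5 averaged 179.8 ± 21.9 FPKM in females and 86.2 ± 42.7 in males, the caveolin Cav1 249 ± 56.1 FPKM in females and 138 ± 40.4 in males, Hopx 383 ± 64.9 FPKM in females and 278 ± 115 in males and podoplanin, Pdpn, 303 ± 43.2 FPKM in females and 219 ± 101 in males. In sham lungs 14 of the 15 had a positive difference but with a median of 0.17 and none past the threshold.

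Type 2 cell genes had a median of 0.53, with 13 of 15 positive. Without male 4, 4 passed as higher in females, against 7.93% of all 14750 genes. The median turned to −0.11 with the mitochondrial covariate and was 0.24 without males 2 and 5. Etv5, a transcription factor that keeps type 2 cells in their state, had 15.8, 18.1, 18.04, 18.9 and 21.6 FPKM in females 1 to 5 and 10.2, 7.83, 9.30, 11.8 and 14.1 FPKM in males 1 to 5. Its groups were apart and it missed the threshold narrowly (log2 fold change 0.79 ± 0.15, adjusted p = 0.0524, adjusted p = 0.0128 without male 4). The surfactant protein C gene Sftpc ranged from 4429 to 7345 FPKM in females and from 922 to 5486 in males (log2 fold change 0.85 ± 0.392, adjusted p = 0.192), and male 4 was the highest male. Slc34a2, the phosphate transporter of type 2 cells, averaged 152 ± 24.9 FPKM in females and 81.1 ± 43.4 in males and Hhip, an antagonist of hedgehog signalling, 6.68 ± 2.06 FPKM in females and 2.53 ± 2.04 in males.

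Genes of the transitional epithelium mostly had higher means in males. Beside Cldn4, Cdkn1a, the cell cycle inhibitor that p53 induces, had 60.1, 30.1, 58.02, 38.7 and 26.3 FPKM in females 1 to 5 and 80.8, 89.4, 121, 81.5 and 65.3 FPKM in males 1 to 5. All males were above all females (log2 fold change −1.05 ± 0.275, adjusted p = 0.0712, adjusted p = 0.0397 without male 4). Sfn, an epithelial member of the same p53 response, averaged 3.81 ± 2.12 FPKM in females and 10.6 ± 5.30 in males, with males 3 and 4 highest. Of the 13 tested genes of this list 10 had a negative difference, with a median of −0.34, and −0.87 with the mitochondrial covariate.

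**Figure D5:**
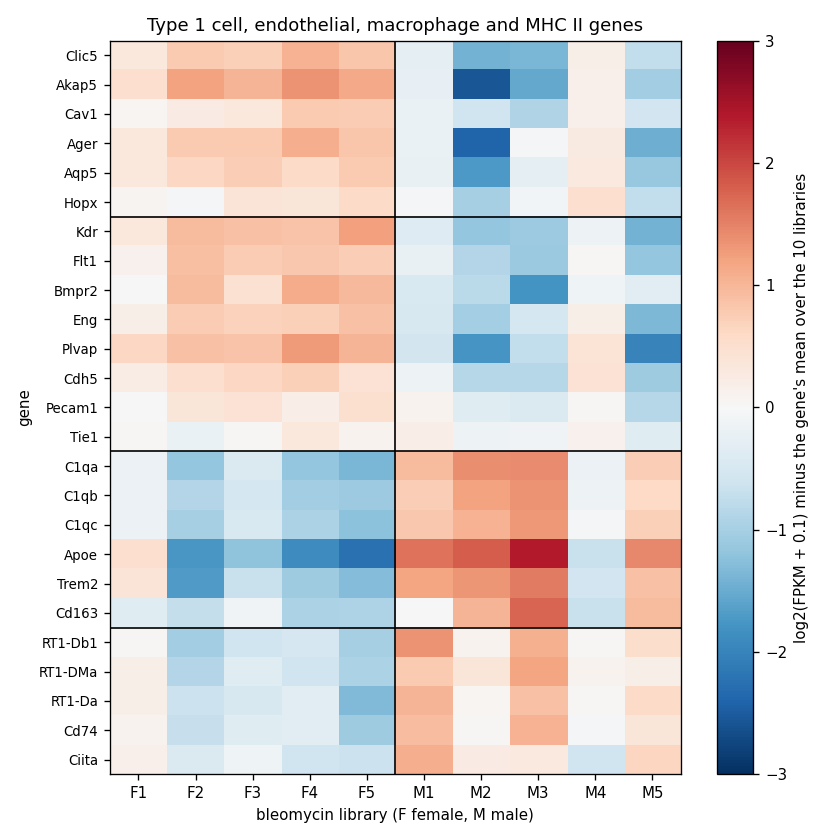
Log2(FPKM + 0.1) of type 1 cell, endothelial, macrophage and complement, and MHC class II genes in each of the 10 bleomycin libraries, as the difference from the gene's mean over the 10. Male 4 is the male closest to the females in Clic5, Kdr and C1qa.

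Complement and macrophage genes mostly had higher means in males, with no gene past the threshold over all 10 libraries. The 3 genes of C1q belong to the first component of the classical complement pathway, which tissue macrophages make. They were the 3 of the 18 tested complement genes in which all males lay above all females. Over all 14750 genes this share was 2.55%. C1qa had 57.8, 29.3, 48.4, 29.3 and 25.3 FPKM in females 1 to 5 and 128, 173, 176, 58.1 and 110.2 FPKM in males 1 to 5. Male 4, at 58.1, was level with female 1, at 57.8, and the other males were far above (log2 fold change −1.77 ± 0.334, adjusted p = 0.0524, adjusted p = 0.00747 without male 4). C1qb (log2 fold change −1.56 ± 0.292, adjusted p = 0.0524) and C1qc (log2 fold change −1.55 ± 0.278, adjusted p = 0.0524) had the same order of males. Cfd, complement factor D, is also a fat cell gene, and its 145 FPKM in male 5 came with 75.02 FPKM of Adipoq, so the part of fat tissue in its mean of 57.5 FPKM in males was not tested. The complement median was −0.63, with 15 of 18 negative. Without male 4, 8 passed as lower in females, against 7.4% of all 14750 genes.

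Of 23 tested macrophage and monocyte genes 21 had a negative difference, and the median was −0.59. Without male 4, 8 passed as lower in females, against 7.4% of all 14750 genes. Apoe, the lipid carrier that lung macrophages secrete, had 599, 126, 183, 115 and 89.7 FPKM in females 1 to 5 and 1302, 1499, 2189.6, 267 and 1152 FPKM in males 1 to 5. The 4 other males were far above all females, female 1 had more than male 4, and so the groups overlapped (log2 fold change −2.53 ± 0.643, adjusted p = 0.0702, adjusted p = 0.0156 without male 4). Trem2, a lipid-sensing receptor of macrophages, averaged 9.70 ± 6.21 FPKM in females and 31.8 ± 13.5 in males (log2 fold change −1.71 ± 0.456, adjusted p = 0.073). The haemoglobin scavenger receptor Cd163 averaged 4.57 ± 1.24 FPKM in females and 12.4 ± 7.43 in males and the sialic acid receptor Siglec1 2.78 ± 1.29 FPKM in females and 5.80 ± 1.64 in males. With the mitochondrial covariate the medians were −0.47 for macrophages and −0.53 for complement, and without males 2 and 5 −0.64 and −0.54. Sham medians of these lists were 0.24 for macrophages and −0.06 for complement. The difference of contrasts passed as negative for 3 genes of each, against 2.24% of all 14750 genes.

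MHC class II genes, which display peptides to helper T cells, had a negative difference in all 12 tested. The median of −0.998 was the lowest of the 17 lists plotted, and none passed with all males. Without male 4, 9 passed as lower in females, against 7.4% of all 14750 genes. RT1-Db1, a beta chain, had 17.5, 8.27, 11.3, 12.01 and 8.59 FPKM in females 1 to 5 and 43.97, 18.6, 36.2, 17.7 and 24.6 FPKM in males 1 to 5. Male 4 had 17.7, just above female 1 at 17.5, so the groups were apart by a narrow gap (log2 fold change −1.30 ± 0.305, adjusted p = 0.0623, adjusted p = 0.0181 without male 4). It was the only one of the 12 without overlap, beside 2.55% of all 14750 genes with all males above all females. Cd74, the invariant chain, averaged 458 ± 136 FPKM in females and 893 ± 311 in males (log2 fold change −0.98 ± 0.293, adjusted p = 0.0872, adjusted p = 0.0373 without male 4). The alpha chain RT1-Da averaged 73.5 ± 26.4 FPKM in females and 149 ± 46.1 in males and the peptide loader RT1-DMa 30.7 ± 10.7 FPKM in females and 63.4 ± 21.3 in males. Ciita, the transcription factor that switches on class II genes, averaged 3.15 ± 0.795 FPKM in females and 5.31 ± 2.16 in males, with male 4 at 2.55 among the females. RT1-DOa averaged 3.57 ± 0.396 FPKM in females and 8.45 ± 4.74 in males, lowest in male 4 and highest in male 1. The RT1 genes are close copies and their reads may be split unevenly. The sham median was 0.08. In bleomycin lungs the median was −1.11 with the mitochondrial covariate and −0.98 without males 2 and 5.

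T and NK cell genes had a median of −0.54, with 19 of 24 negative. Without male 4, 10 passed as lower in females, against 7.4% of all 14750 genes. The median turned to 0.09 with the mitochondrial covariate and was −0.37 without males 2 and 5. The thymus list, whose sum is mostly Cd8b, a gene of both lists, had a summed level of 0.723 to 1.91 FPKM in females and 1.22 (male 4) to 4.91 in males (exact permutation test, two-sided, p = 0.0238, n = 5), and its part in these differences was not tested. The T cell receptor chain Cd3d averaged 1.10 ± 0.314 FPKM in females and 2.13 ± 0.757 in males, and Cd3g 5.82 ± 1.40 FPKM in females and 10.6 ± 4.50 in males. The coreceptor chain Cd8a averaged 9.74 ± 2.58 FPKM in females and 19.6 ± 9.68 in males, and Cd8b had 1.64, 0.722, 1.65, 0.718 and 0.674 FPKM in females 1 to 5 and 3.52, 4.20, 3.67, 1.13 and 3.33 FPKM in males 1 to 5. Male 4 stood apart below the other males in Cd8b (log2 fold change −1.54 ± 0.398, adjusted p = 0.0711, adjusted p = 0.0126 without male 4). B and plasma cell genes were split: Bank1 was higher in females, while Fcrl2 averaged 6.02 ± 3.48 FPKM in females and 28.1 ± 14.6 in males (log2 fold change −2.19 ± 0.518, adjusted p = 0.0623), and the list's median was 0.26.

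Cytokine and interferon genes also went both ways. Cxcl10, the interferon-induced chemokine of T cells, had 4.22, 1.65, 3.25, 3.45 and 2.28 FPKM in females 1 to 5 and 6.63, 16.5, 10.04, 5.55 and 8.59 FPKM in males 1 to 5. All males were above all females (log2 fold change −1.66 ± 0.34, adjusted p = 0.0537, adjusted p = 0.0119 without male 4). Il1a, an alarm cytokine, had 6.74, 10.3, 7.96, 6.35 and 4.06 FPKM in females 1 to 5 and 1.55, 0.735, 1.11, 4.16 and 0.96 FPKM in males 1 to 5. Here females were above 4 of the males and male 4 overlapped with female 5 (log2 fold change 2.03 ± 0.478, adjusted p = 0.0623, adjusted p = 0.00647 without male 4). The epithelial alarm cytokine Il33 averaged 80.7 ± 8.18 FPKM in females and 48.6 ± 11.8 in males and the macrophage chemokine Ccl6 145 ± 34.8 FPKM in females and 64.8 ± 24.02 in males, both without overlap and with females above. Of 30 cytokines and chemokines 19 had a negative difference, with a median of −0.21, which turned to 0.05 with the mitochondrial covariate. Of 28 interferon-stimulated genes 21 did, with a median of −0.34. Without male 4, 8 of these passed as lower in females, against 7.4% of all 14750 genes.

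Matrix genes, whose deposition defines fibrosis, showed no common direction. Of 26 tested genes of fibrillar matrix and fibroblasts 12 had a positive and 14 a negative difference, with a median of −0.16 (−0.48 with the mitochondrial covariate and −0.30 without males 2 and 5) and none past the threshold. Lox, which cross-links collagen, had 66.5, 101, 76.9, 109.7 and 59.8 FPKM in females 1 to 5 and 32.4, 15.6, 12.8, 63.4 and 23.2 FPKM in males 1 to 5. Male 4 overlapped with the females and the other 4 males were below all of them (log2 fold change 1.48 ± 0.405, adjusted p = 0.0751, adjusted p = 0.00747 without male 4). Col5a3, a minor fibrillar collagen chain, had 4.12, 1.45, 2.16, 0.823 and 1.05 FPKM in females 1 to 5 and 6.79, 10.02, 7.48, 4.98 and 4.43 FPKM in males 1 to 5. All males were above all females (log2 fold change −1.81 ± 0.426, adjusted p = 0.0623, adjusted p = 0.0251 without male 4). The fibroblast protease Fap averaged 0.906 ± 0.366 FPKM in females and 2.14 ± 0.706 in males. The platelet-derived growth factor receptor gene Pdgfra averaged 19.6 ± 3.77 FPKM in females and 13.9 ± 2.13 in males. In sham lungs the median of the list was −0.83 and 10 of the 26 passed, against 0.427% of all 14750 genes. The difference of contrasts was positive and passed in 11, against 3.86% of all genes. The gelatinase Mmp2, with males apart above females, averaged 93.9 ± 15.4 FPKM in females and 188 ± 80.5 in males and its inhibitor family member Timp3 459.9 ± 167 FPKM in females and 168 ± 107 in males.

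Basement membrane genes had a median of 0.03, which turned to −0.49 with the mitochondrial covariate and to −0.21 without males 2 and 5. Nid2, a nidogen that links laminin to collagen IV, had 5.63, 4.96, 4.95, 4.89 and 5.49 FPKM in females 1 to 5 and 7.04, 6.11, 6.61, 6.85 and 6.90 FPKM in males 1 to 5. The range within each sex was narrow and every male exceeded every female (log2 fold change −0.38 ± 0.0994, adjusted p = 0.0713, adjusted p = 0.0452 without male 4). The collagen IV chains of the alveolar basement membrane went the other way, with Col4a3 at 18.3 ± 4.65 FPKM in females and 5.73 ± 4.68 in males and Col4a4 at 35.6 ± 8.52 FPKM in females and 12.7 ± 8.22 in males, both with females apart above males (adjusted p = 0.113 and adjusted p = 0.0749). Among 18 genes of TGF-beta signalling 14 had a positive difference and the median was 0.35 (0.21 with the mitochondrial covariate and 0.16 without males 2 and 5). The inhibitory Smad6 averaged 61.1 ± 19.2 FPKM in females and 22.5 ± 8.43 in males, without overlap (log2 fold change 1.41 ± 0.297, adjusted p = 0.0577, adjusted p = 0.0115 without male 4), and Smad7 22.2 ± 3.77 FPKM in females and 13.1 ± 2.68 in males (log2 fold change 0.75 ± 0.163, adjusted p = 0.0607). The matricellular target Ccn2 averaged 521 ± 123 FPKM in females and 222 ± 110.3 in males, while the secreted target Tgfbi averaged 15.3 ± 3.55 FPKM in females and 32.5 ± 10.9 in males. Synm, an intermediate filament protein of muscle, was the smooth muscle list gene nearest to the threshold (16.2 ± 4.45 FPKM in females and 8.12 ± 1.62 in males, adjusted p = 0.0524), and that list had a median of −0.16 over 13 genes.

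Cell division genes had a positive difference in 28 of 29, with a median of 0.47. In 4 all females lay above all males, against 5.04% of all 14750 genes. Without male 4, 16 passed as higher in females, against 7.93% of all genes. The median fell to 0.14 with the mitochondrial covariate and to 0.26 without males 2 and 5, and no gene passed in either fit. Nusap1, a spindle protein, had 11.5, 14.5, 15.5, 12.5 and 16.9 FPKM in females 1 to 5 and 9.40, 5.06, 6.44, 10.3 and 6.83 FPKM in males 1 to 5. Male 4 was the highest male and lay below female 1 (log2 fold change 0.88 ± 0.199, adjusted p = 0.0607, adjusted p = 0.0108 without male 4). The motor protein gene Kif11 averaged 7.80 ± 1.13 FPKM in females and 3.95 ± 1.46 in males, the proliferation antigen Mki67 11.6 ± 1.91 FPKM in females and 7.24 ± 1.89 in males and the replication helicase Mcm2 20.2 ± 2.47 FPKM in females and 13.3 ± 2.37 in males. In sham lungs none of the 29 was positive and the median was −0.40. The difference of contrasts passed as positive in 13, against 3.86% of all 14750 genes.

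The p53 list, which covers the response to broken DNA, had members on both sides. Aen, an exonuclease, had 11.5, 9.34, 10.3, 8.32 and 8.44 FPKM in females 1 to 5 and 17.5, 17.3, 15.8, 12.4 and 14.7 FPKM in males 1 to 5. All males were above all females (log2 fold change −0.70 ± 0.136, adjusted p = 0.0524, adjusted p = 0.0105 without male 4). Bax, which permeabilises mitochondria, averaged 14.1 ± 2.46 FPKM in females and 22.5 ± 3.62 in males, and Phlda3, an inhibitor of Akt, 47.5 ± 9.71 FPKM in females and 88.7 ± 23.4 in males, both apart with males above. Perp, a desmosomal membrane protein that p53 induces, averaged 89.2 ± 19.95 FPKM in females and 47.1 ± 7.34 in males, apart with females above (log2 fold change 0.91 ± 0.177, adjusted p = 0.0524). Of the 28 tested, 19 had a negative difference, and the median was −0.26. In 3 all females lay above all males, against 5.04% of all 14750 genes. In 4 all males lay above all females, against 2.55%. The bleomycin hydrolase gene Blmh, whose enzyme inactivates the drug, averaged 22.7 ± 1.30 FPKM in females and 21.3 ± 3.85 in males (log2 fold change 0.07 ± 0.154, adjusted p = 0.791).

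Nuclear genes of the respiratory chain had a negative difference in 36 of 40, with a small median of −0.21 (−0.43 with the mitochondrial covariate). Without male 4, 5 of the 40 passed as lower in females, against 7.4% of all 14750 genes. Ndufa2 averaged 26.6 ± 2.66 FPKM in females and 40.6 ± 6.75 in males, Ndufa6 33.04 ± 1.51 FPKM in females and 43.1 ± 4.12 in males and Cox6c 111 ± 12.3 FPKM in females and 148 ± 15.97 in males, and these stood beside the mitochondrial share of counts given above. In the hypoxia and glycolysis list 16 of 22 were negative, with a median of −0.41. Bnip3, a mitophagy receptor induced by low oxygen, averaged 7.39 ± 0.729 FPKM in females and 11.4 ± 2.96 in males, and the glycolytic enzyme Tpi1 75.8 ± 6.20 FPKM in females and 105 ± 14.5 in males, with males apart above females. Cholesterol synthesis and uptake genes were positive in 17 of 18, with a median of 0.40. Without male 4, 11 passed as higher in females, against 7.93% of all 14750 genes. Their median turned to −0.30 with the mitochondrial covariate and was 0.09 without males 2 and 5. The cholesterol carrier Stard4 averaged 10.6 ± 1.18 FPKM in females and 6.09 ± 2.48 in males and the isoprenoid enzyme Idi1 15.4 ± 1.58 FPKM in females and 9.35 ± 5.92 in males, with male 4 the highest of all 10 libraries for Idi1 at 19.6. Ces1d, a carboxylesterase, averaged 41.01 ± 8.87 FPKM in females and 20.96 ± 4.90 in males, apart with females above (log2 fold change 0.96 ± 0.21, adjusted p = 0.0607).

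The receptors of sex steroids could not be compared. Esr1, Esr2 and Pgr lay below 0.5 FPKM in too many libraries to be tested, and the androgen receptor gene lies on chromosome X. Of the sex steroid list 12 genes were tested, with a median of −0.05 (0.05 without males 2 and 5) and none past the threshold. The membrane estrogen receptor Gper1 had females apart above males (3.44 ± 0.642 FPKM in females and 1.83 ± 0.726 in males, log2 fold change 0.88 ± 0.311, adjusted p = 0.116).

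Globin genes were abundant and variable. Hbb, the beta chain, had 366, 134, 84.3, 309 and 123 FPKM in females 1 to 5 and 27.4, 32.1, 118, 51.7 and 17.8 FPKM in males 1 to 5. Females 1 and 4 were highest, and male 3 was above female 3 (log2 fold change 1.99 ± 0.595, adjusted p = 0.0863). Of 6 tested red cell genes 5 had a positive difference, with a median of 0.999. The red cell list summed to 274 to 1067 FPKM in females and 74.6 to 407 in males, and its part in the endothelial differences was not tested.

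Lists of tissues other than lung parenchyma were read for the same reason. Liver transcripts had a median of −2.30 over 11 tested genes, fat cell transcripts −2.82 over 4, heart muscle −1.37 over 7, skeletal muscle −1.36 over 4, mesothelium −0.91 over 5 and thymus −1.54 over 1 (Cd8b), none with a gene past the threshold. With the mitochondrial covariate the medians were −0.185 for liver, 0.10 for fat, 0.45 for heart muscle, −0.65 for skeletal muscle, −0.24 for mesothelium and −1.24 for thymus. Without males 2 and 5 they were −1.10, −0.62, 0.22, −0.70, −0.46 and −1.41, and without male 5 alone the fat median was −0.59 and that of heart muscle 0.28. Albumin, Alb, ranged from 0.622 to 25.6 FPKM in females and from 2.60 to 97.0 in males, Adipoq from 0.0344 to 1.30 and from 0.468 to 75.02, and the atrial gene Myl7 from 0 to 9.79 and from 0.489 to 59.4. Without males 2 and 5, the highest in Alb, 8 genes were called. Airway ciliated cell genes were negative in all 14 tested, with a median of −0.50, which turned to 0.12 with the mitochondrial covariate and to 0.03 without males 2 and 5. The other lists had medians between −0.72 in mast cells and basophils and 0.38 in immediate early genes, and none of them had a gene past the threshold with all 10 libraries except Cyp2b1 among airway secretory genes.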

How the data were processed

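Per the labels' protocols, total RNA of rat lung (integrity number at least 7.0) was made into stranded poly-A libraries, and reads went through Cutadapt 1.10, FastQC 0.10.1, HISAT2 2.0 and StringTie 1.3.4. The deposited table gives counts and FPKM per gene and library, per the file headers, and StringTie gave the FPKM values, per the labels' protocols. How whole counts came about, and whether counting used strand, is not given in the sources used here. The labels name Ensembl 112 and Rnor 6.0 together, which do not belong to 1 release, so no coordinates are printed. Multiples of 4 are in excess among the deposited counts (4 occurs 3699 times, 3 occurs 1822 times and 5 occurs 1260 times). Apobec1, Bmpr2, Col7a1, Eng, Hbb, Lox, Lyve1, Pcdha5 and Vipr1 overlap other genes in the deposited positions, so their counts may hold reads of these.

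Genes reaching 0.5 FPKM in at least 5 of the 10 bleomycin libraries were tested, 15283 with chromosomes X, Y and MT, and p-values were adjusted over all of these by Benjamini-Hochberg. edgeR 4.0.16 in R 4.3.3 was run on the counts (TMM, robust quasi-likelihood test, two-sided, prior count 0.125). Females against males in bleomycin lungs used those 10 libraries alone. The sham contrast and the difference of contrasts used all 20, so their spread was estimated over sham and bleomycin libraries together. Sham libraries were kept out of the bleomycin test because an earlier look found bleomycin males more spread than the sham groups. With all 20 libraries in 1 model, the bleomycin contrast called 605 genes instead of 20. Log2 fold changes are given ± standard error and FPKM means ± SD (n = 5). P-values measure the spread between animals. Alternatives used DESeq2 1.42.0, limma 3.58.1 on log2(FPKM + 0.1) and log2(FPKM + 1), and limma-voom. The test was tried on simulated counts in which both sexes had the same spread. Males were more spread than females here, so that trial does not cover such data.

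The genes and the 42 lists (783 listed symbols, 756 in the table) were chosen with earlier results of these data known. Named genes are all called genes with a proper symbol, from each described list up to 4 genes by smallest p, genes of the class II, endothelial and type 1 lists, and the steroid receptors and Blmh. A symbol carried by more than 1 gene was left out of list counts. Some genes are not reported here, and miRNA libraries were not analysed here.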

Additional observations from a re-analysis of the deposited data

Results flagged for a closer look

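In 18 of 244 groups of 5 libraries (122 named genes in each sex) 1 library stood apart from the other 4, with a gap to its nearest neighbour above 0.71 of the group's range. For independent values from a normal distribution, chance alone gives about 1 in 20 such groups. FPKM was used here without a log scale and neither condition was checked, so the 18 cannot be judged against that rate. Female 1 lay above the rest of its sex in Apoe (0.817). Female 1 lay below the rest of its sex in Flt1 (0.755), Eng (0.712), Bmp6 (0.726) and Smad7 (0.733). Female 4 lay above the rest of its sex in Ccl6 (0.751) and Stard4 (0.736). Female 5 lay above the rest of its sex in Bnip3 (0.729) and Alb (0.768). Male 2 lay above the rest of its sex in Rgs4 (0.772). Male 3 lay above the rest of its sex in Mmp2 (0.764). Male 3 lay below the rest of its sex in Synm (0.840) and Clock (0.749). Male 4 lay above the rest of its sex in Il1a (0.763) and Idi1 (0.751). Male 4 lay below the rest of its sex in Cd8b (0.716). Male 5 lay above the rest of its sex in Adipoq (0.984), Myl7 (0.827), the heart muscle list sum (0.827) and the fat cell list sum (0.867).

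The sex difference of bleomycin lungs differed from that of sham lungs at an adjusted p under 0.05 (edgeR, all 20 libraries) in 51 of the 122 named genes, beside 6.11% of the 14750 autosomal genes. These genes were partly named for their small p in the bleomycin contrast, which enters this difference, so the share is not independent of the choice. The difference of contrasts on the log2 scale was positive for Pcdha5 (1.55), Bank1 (1.51), Smad9 (0.96), Vipr1 (1.37), Gckr (1.72), Kdr (1.48), Alpk3 (1.15), Susd2 (2.10), Flt1 (1.17), Bmpr2 (1.40), Ptprb (1.07), Eng (1.30), Ednrb (2.11), Cdh5 (1.35), Bmp6 (1.12), Clic5 (1.22), Lox (2.25), Col4a4 (1.58), Nusap1 (1.56), Kif11 (1.69), Mki67 (1.05), Mcm2 (0.88), Perp (0.85), Stard4 (1.06), Ces1d (0.95), Hbb (2.99), Flt4 (0.88), Lyve1 (1.19) and Kit (1.47). It was negative for Tmem202 (−3.47), Cldn4 (−1.90), Apobec1 (−2.36), C1qa (−1.70), C1qb (−1.22), Cfd (−2.93), Apoe (−2.65), Trem2 (−2.47), Siglec1 (−1.71), RT1-Db1 (−1.57), Cd74 (−1.13), Cd8b (−1.80), Cd3d (−1.53), Cxcl10 (−2.02), Tgfbi (−0.995), Aen (−0.73), Bax (−0.85), Bnip3 (−0.78), Tpi1 (−0.49), Ndufa2 (−0.90), Cox6c (−0.57) and Ndufa6 (−0.83).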

How the results depend on the processing

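The count of 20 genes called between bleomycin females and males depended on the fit. It was 59 with a minimum of 2 FPKM, 592 with DESeq2, 138 and 136 with limma on log2(FPKM + 0.1) and log2(FPKM + 1), 836 with limma-voom and sample weights, 605 with all 20 libraries in 1 model, 1 with the mitochondrial percentage as a covariate, 2 with p-values adjusted over autosomal genes alone and 8 without males 2 and 5. At an adjusted p under 0.1, chosen after seeing the data, it was 501. Leaving out 1 library gave 1 to 818: 818 without male 4, 174 without female 1, 11, 9, 4 and 7 without males 1, 2, 3 and 5, and 1 without each of females 2, 3, 4 and 5. The other filters, scalings and the counts divided by 4 gave 14 to 29. The cause was not tested. None of the called genes changed direction under the alternatives that tested it: the minimum of 2 FPKM tested 14 of the 20 and the others all 20. The replicate numbers do not pair the libraries (same-numbered libraries correlated by −0.18 to 0.19, and 3 of 10 libraries correlated best with their own number). With the replicate block 19 genes were called, and 11 of the 20 lost the threshold.

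The sham count of 35 was 96 with DESeq2, 107 with limma-voom, 14 with limma on log2(FPKM + 1), 61 with the 10 sham libraries alone and 63 at an adjusted p under 0.1. Leaving out 1 library gave 17 to 55, with 55 without sham male 3, 20 without sham male 5, and 21, 20 and 17 without sham females 2, 4 and 5. With the replicate block it was 34.

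The 399 differences of contrasts became 687 with DESeq2, 1079 with limma-voom, 0 with the mitochondrial covariate (2872 at an unadjusted p under 0.05), 20 without the libraries with organ transcripts (bleomycin males 2 and 5, sham males 3 and 5, sham female 1) and 728 at an adjusted p under 0.1. With the replicate block they were 472. Leaving out 1 library gave 169 to 1069: 1069 without bleomycin male 4, 175 without bleomycin male 2, 169, 221 and 195 without bleomycin females 2, 3 and 4, 205 and 223 without sham males 4 and 5, and 199, 221, 216 and 204 without sham females 2 to 5. With 5 animals a group and males that differ among themselves, a missed threshold does not show equal levels.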

Other observations

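Genes of lists not described above follow. Of Flt4, Lyve1, Ccl21, Kit, Il1rl1, Padi4 and Cxcr1, only Flt4 and Cxcr1 had separate groups. In lymphatic endothelium Flt4, the receptor of the lymphatic growth factor, averaged 6.55 ± 0.637 FPKM in females and 4.24 ± 0.824 in males with every female above every male, and the hyaluronan receptor Lyve1 averaged 33.7 ± 7.96 FPKM in females and 17.2 ± 5.87 in males. The lymphatic chemokine Ccl21 averaged 96.1 ± 35.3 FPKM in females and 195 ± 109 in males. Neither Flt4 nor Lyve1 passed with all males (adjusted p = 0.0607 and adjusted p = 0.0702), and both passed without male 4 (adjusted p = 0.0173 and adjusted p = 0.00895). The stem cell factor receptor Kit averaged 22.1 ± 6.27 FPKM in females and 9.66 ± 4.13 in males and the interleukin 33 receptor Il1rl1 3.68 ± 0.457 FPKM in females and 6.03 ± 1.29 in males (adjusted p = 0.0654 and adjusted p = 0.0629). Of the neutrophil genes, Padi4, which citrullinates histones, averaged 1.87 ± 1.09 FPKM in females and 4.37 ± 1.23 in males, while the chemokine receptor Cxcr1 averaged 5.06 ± 0.957 FPKM in females and 2.02 ± 1.52 in males, apart with females above.

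Stress and clock genes differed by smaller amounts. The glucocorticoid target Fkbp5 averaged 10.2 ± 1.39 FPKM in females and 15.5 ± 2.91 in males (log2 fold change −0.63 ± 0.164, adjusted p = 0.0716). The immediate early genes Klf4 and Jun averaged 30.7 ± 4.84 FPKM in females and 20.1 ± 4.62 in males and 46.2 ± 4.83 FPKM in females and 33.8 ± 5.58 in males. Dnajb9, a chaperone of the unfolded protein response, averaged 11.4 ± 1.12 FPKM in females and 8.99 ± 0.854 in males, apart with females above, and the stress transcription factor Ddit3 10.9 ± 2.03 FPKM in females and 17.7 ± 6.58 in males. The clock genes Cry2 and Clock averaged 8.28 ± 1.66 FPKM in females and 11.3 ± 1.83 in males and 7.80 ± 0.759 FPKM in females and 5.56 ± 1.37 in males. None of these genes passed with all 10 libraries.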
